A study of Mus musculus with 9 samples.

Results

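Classical protein tyrosine phosphatases are the enzymes that take phosphate off tyrosine residues of proteins, and their transcripts were compared here between mouse regulatory T (Treg) cells with and without the Hippo kinases Mst1 and Mst2. The genes were chosen by symbol (Ptpn followed by a number, for the cytoplasmic enzymes, or Ptpr followed by a letter, for the enzymes with a membrane-spanning part), and that rule uses no measured value, although the family was picked with earlier results of these data known. Of the 22180 genes on the arrays, 37 met the rule, 17 named Ptpn and 20 named Ptpr, each with 1 probe set. Wild-type Treg cells (n = 5) came from Foxp3YFP-Cre donors and null cells, labelled Mst1/Mst2-KO (n = 4), from Foxp3YFP-CreStk4f/fStk3f/f donors, both of strain C57BL/6. Stk4 and Stk3 encode Mst1 and Mst2, and Cre at the Foxp3 locus restricts their deletion to cells that express Foxp3. Donor marrow was mixed with an equal share of CD45.1 wild-type marrow and given to RAG1-/- recipients, which make no T or B cells of their own, and 2 months later CD4+YFP+ cells with CD45.2 and without CD45.1 were sorted. Both groups therefore carried the Cre and YFP allele and had matured in mixed chimeras. The ages of the mice, and whether a sample came from 1 animal or a pool, are not stated in the labels, so p-values measure only the spread between these samples.

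Active protein tyrosine phosphatases use a cysteine at the base of the catalytic pocket to attack phosphotyrosine. The family sets the balance against the tyrosine kinases of T cell receptor and cytokine receptor signalling. Some members promote signals, as CD45 does by removing the inhibitory phosphate of Src family kinases. Others end them, as Ptpn22 does at the T cell receptor and Ptpn2 at receptors that use JAK kinases and STAT factors. In Treg cells, interleukin-2 acts through such a receptor, and the title of the study names that route.

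Values are log2 RMA values, 1 array per sample, and differences are taken as null minus wild type. RMA values of different probe sets are not on a common scale of RNA amount, so levels are compared only within a gene. The median of all probe set values was 4.04, and signal under that array median is not shown to exceed background. Foxp3 averaged 10.70 ± 0.049 (SD, n = 5) in the wild-type and 10.72 ± 0.092 (SD, n = 4) in the null group. The probe set of Stk4 fell short of the threshold (difference -0.27, limma adjusted p = 0.146) and summarises the whole transcript, so it does not check the deletion. The mean level of 7 T and Treg cell markers lay between 10.03 and 10.11 in wild-type and between 9.73 and 9.91 in null samples. Of these 7, Ikzf2, which encodes the Treg cell factor Helios, fell without overlap (difference -0.72, limma adjusted p = 0.0330), and its call held without null sample 3 or null sample 4 and was lost without any other 1 array (up to 0.0908). Cd3e (-0.31) and Cd3g (-0.32) were lower without overlap but did not pass, and 4 of the 7 were lower and 0 higher at an unadjusted p under 0.05, a cut that 9.8% of all genes met as lower and 5.06% as higher. Their part in the results on the phosphatases was not tested. The mean over 11 myeloid markers, 4 of them under the array median, lay between 4.77 and 5.07 in wild-type and between 5.06 and 5.43 in null samples. Over 8 B cell markers, 2 of them under the array median, the range was 4.32 to 5.13 in wild-type and 4.47 to 5.26 in null samples, and null sample 4 was the highest of all in both lists. None of the B cell, myeloid, CD8 T cell, NK cell, stromal or erythroid markers passed the limma test (34 measured, 6 higher and 0 lower at an unadjusted p under 0.05, beside 5.06% of all genes higher and 9.8% lower). Null samples were more variable, with mean correlations to their own group from 0.9866 to 0.9888 against 0.9928 to 0.9936 in wild type. Null sample 4 alone had a higher mean correlation to the other group (0.9877) than to its own (0.9873). All wild-type samples precede all null samples in the serial numbers of the titles, so an effect of that order and genotype cannot be told apart.

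Null Treg cells had lower transcript levels of 5 of the 37 phosphatase genes and higher levels of 0 (limma adjusted p under 0.05 over all genes). The 5 were Ptprj, Ptpn9, Ptpn7, Ptpn13 and Ptprs. Across all 22180 genes 1.89% passed as lower, 0.428% as higher and 2.32% in either direction. These were 420 lower and 95 higher genes, and after quantile normalisation 306 lower and 170 higher, with 4 lower phosphatase genes and 0 higher. The arrays measure pooled RNA, in which fewer cells of a type and less RNA per cell cannot be told apart. At an unadjusted p under 0.05, 10 of the 37 were lower and 0 higher, beside 9.8% of all genes lower and 5.06% higher. In 8 of the 37 phosphatase genes the null samples all lay below the wild-type samples, and in 0 they all lay above. Among all genes 4.4% had such groups with the null values lower, 1.76% with them higher and 6.16% in either direction. The count of lower phosphatase genes was 2 without wild-type sample 4, null sample 1 or null sample 3, 3 without wild-type sample 1, 2, 3 or 5, and 7 without null sample 4, and Ptprj and Ptpn9 passed in each of these fits. The median difference over the 37 genes was -0.022, beside 0.0023 over all genes. Without null sample 4 the median over the 37 was 0.0077. Of the 37, 15 had a mean under the array median, and none of these passed. Few genes of such signal did, since 404 of the 420 lower and 84 of the 95 higher genes had a mean at or above it. Over the other 22 phosphatase genes the median difference was -0.28, beside -0.037 over all 11350 genes with a mean at or above the array median. Of these 22, 5 passed as lower and 8 were lower without overlap, beside 3.56% and 8.08% of the 11350.

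**Figure D1:**
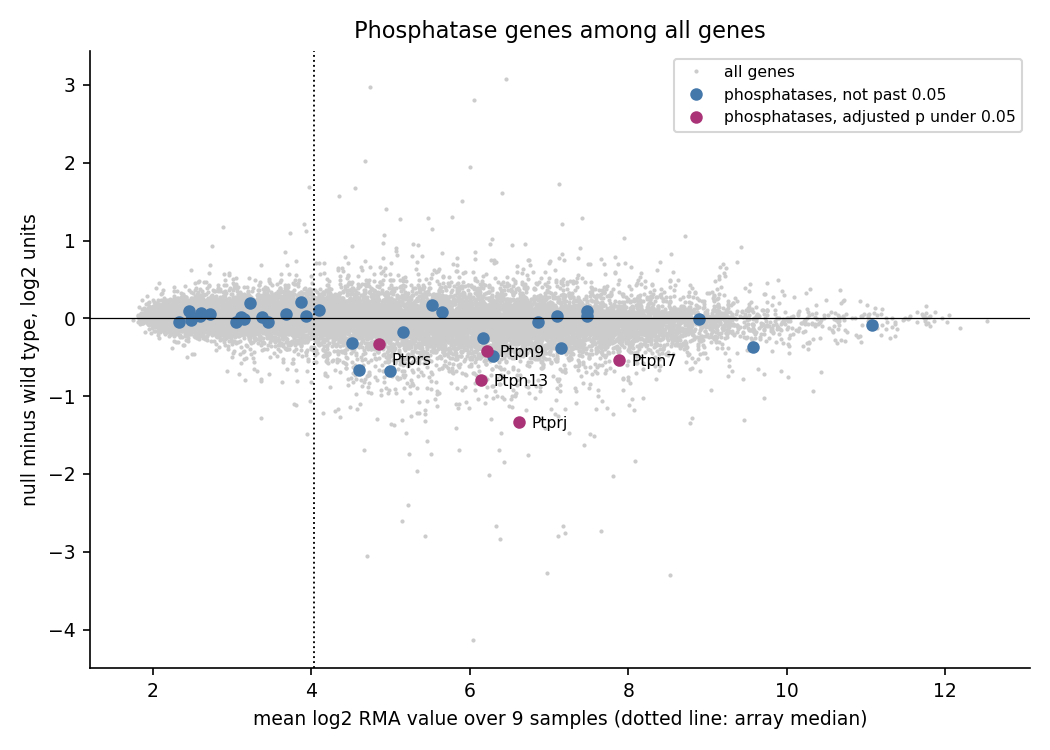
Difference between null and wild-type samples (log2 units, vertical) against the mean log2 RMA value over 9 samples (horizontal) for all 22180 genes (grey) and the 37 phosphatase genes (blue, or magenta where the limma adjusted p was under 0.05). The 5 magenta points lie below 0 and to the right of the dotted line, which marks the array median of 4.04.

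The largest difference was in Ptprj, which encodes CD148 (also DEP-1), a receptor phosphatase with fibronectin repeats outside the cell that acts, like CD45, on Src family kinases. Ptprj stood at 7.07, 7.28, 7.13, 7.15 and 7.42 in wild-type samples 1 to 5 and 5.38, 5.98, 5.84 and 6.30 in null samples 1 to 4. The groups did not overlap, with a gap between the lowest wild-type and the highest null sample, and null sample 1 was the lowest. The wild-type mean of 7.21 ± 0.14 (SD, n = 5) compared with a null mean of 5.88 ± 0.38 (SD, n = 4), a 2.52-fold fall, and Ptprj passed the limma test (adjusted p = 0.0026). It also passed without any 1 of the 9 arrays, with differences from -1.47 to -1.17. CD148 is known from B cells and myeloid cells as well as T cells, and the marker lists of both kinds of cell were highest in null sample 4, the null sample with the highest Ptprj value. Their part in the result was not tested.

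The annotation gives Ptprj a pair of transcription starts, and the 250 bases before each are shown because they differ in composition. They are RefSeq sequences of build GRCm38.p6 on the minus strand of chromosome 2, written 5′ to 3′, and capitals mark TTCNNNGAA, the core motif of STAT factors.
Ptprj, chr2:90479175-90479424: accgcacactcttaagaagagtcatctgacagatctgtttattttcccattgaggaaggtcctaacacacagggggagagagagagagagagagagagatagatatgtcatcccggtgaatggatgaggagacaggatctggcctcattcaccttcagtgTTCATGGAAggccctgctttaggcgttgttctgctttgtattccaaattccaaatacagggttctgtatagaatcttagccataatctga
Ptprj, chr2:90580596-90580845: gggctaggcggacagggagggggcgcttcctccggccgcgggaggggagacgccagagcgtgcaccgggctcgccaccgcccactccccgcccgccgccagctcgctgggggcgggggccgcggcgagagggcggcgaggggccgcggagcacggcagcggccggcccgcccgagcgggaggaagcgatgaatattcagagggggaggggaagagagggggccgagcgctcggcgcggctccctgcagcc
The first window held 3 CpG dinucleotides and 1 TTCNNNGAA match, from 90 to 82 bases before the start, and the second held 34 CpG dinucleotides and no match. A whole-transcript probe set does not tell which start was in use.

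Windows of 250 bases before the start were available for 31 of the 37 genes, 45 windows in all, and 8 windows belonged to the 5 genes past the threshold. The motif TTCNNNGAA, which reads alike on both strands, was in 5 of the 45 windows and in 1 of the 8, beside 7.02% of all 32851 windows. GGAATG, the core motif of TEAD factors (the DNA-binding partners of the Hippo pathway), was sought on both strands and found in 5 of 45 and 1 of 8 windows, beside 12.6% of all. TGTTTAC, a forkhead motif also sought on both strands, was in 3 of 45 and 0 of 8, beside 3.17%. In 1 window of Ptpn22 a TTCNNNGAA and a GGAATG match overlapped. The windows of the phosphatase genes held a median of 15 CpG dinucleotides, the same as in the 8 windows of genes past the threshold, and the median of all windows was 6. The 1 GGAATG match among the genes past the threshold was in a window of Ptprs on the minus strand of chromosome 17, in capitals here as its reverse complement CATTCC, from 160 to 155 bases before the start.
Ptprs, chr17:56462222-56462471: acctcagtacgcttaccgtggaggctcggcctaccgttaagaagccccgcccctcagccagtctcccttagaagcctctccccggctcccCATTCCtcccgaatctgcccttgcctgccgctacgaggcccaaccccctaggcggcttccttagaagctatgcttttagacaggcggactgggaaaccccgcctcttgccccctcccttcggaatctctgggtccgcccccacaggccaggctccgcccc
These matches describe letters only, and no binding was measured.

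Ptprs itself encodes PTP sigma, a receptor phosphatase of the LAR type whose outer part binds heparan and chondroitin sulfate chains. Its values were 4.98, 5.00, 5.07, 4.97 and 4.96 in wild-type samples 1 to 5 and 4.58, 4.61, 4.59 and 4.88 in null samples 1 to 4. The groups did not overlap, but null sample 4 was much nearer to wild type than the other null samples. The difference of -0.33 ± 0.074 (SE) was just past the threshold (limma adjusted p = 0.0487). Without null sample 4 the difference was -0.40 (limma adjusted p = 0.0084), while without any other array it did not pass, with adjusted p from 0.0853 to 0.123. The other genes of the LAR type, Ptprd and Ptprf, had means of 2.61 and 3.93, under the array median.

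Among the other receptor phosphatases with a mean above the array median (Ptprc, Ptpra, Ptpre, Ptprv and Ptprh) none passed. Ptprc encodes CD45, the most abundant phosphatase of the lymphocyte surface, and its values were 11.05, 11.07, 11.08, 11.14 and 11.23 in wild type and 11.14, 10.94, 11.11 and 10.93 in null samples. The groups overlapped, and the 95% interval of the difference ran from -0.24 to 0.071. Ptpra and Ptpre encode close relatives with short outer parts that act on Src family kinases. Ptpra had a difference of 0.027 (95% interval -0.12 to 0.18) and Ptpre one of -0.25 (95% interval -0.50 to 0.0024), and both groups overlapped in each gene. The other 13 receptor genes, among them the cell adhesion type (Ptprk, Ptprm and Ptpru) and the vesicle proteins Ptprn and Ptprn2, had means between 2.46 and 3.93 and differences between -0.051 and 0.19. Ptprr, the receptor gene of the MAP kinase phosphatases, was also among these 13, so that its level (3.15 over the 9 samples) is not shown to exceed background.

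**Figure D2:**
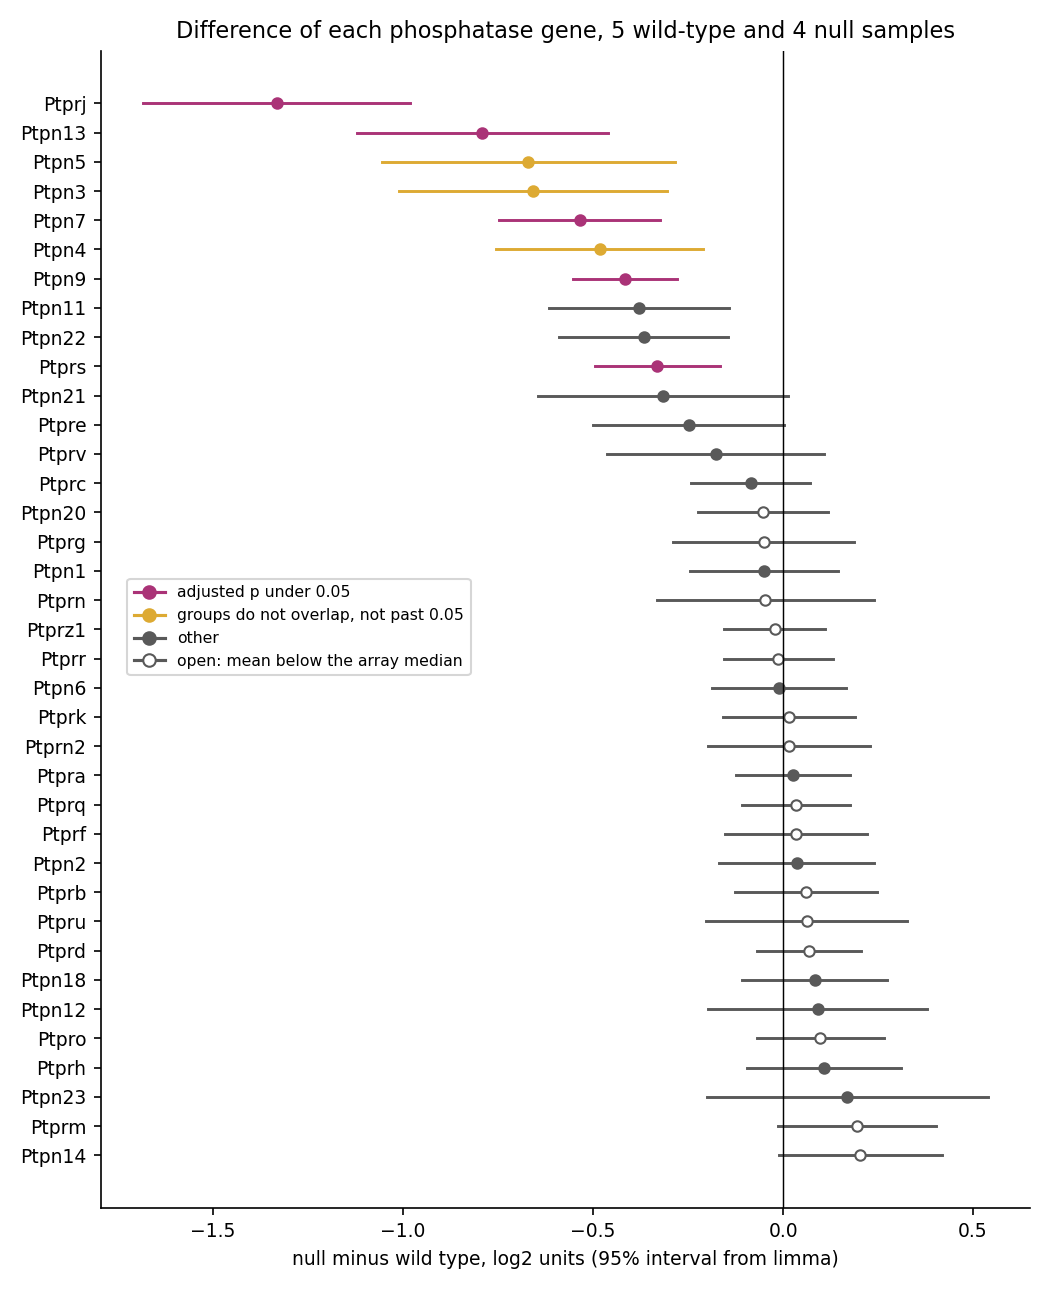
Difference between null and wild-type samples in log2 units (points) with the 95% interval from limma (lines) for each of the 37 phosphatase genes, ordered by the difference, with open points for genes whose mean was under the array median. Ptprj is the farthest from 0 at -1.33, and the 5 magenta genes and the 3 yellow genes without overlap all lie to the left of 0.

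The phosphatases of MAP kinases carry a docking motif through which they bind and inactivate ERK and p38, the kinases at the end of the RAS and stress pathways. Ptpn7, the member of blood cells (HePTP), fell in null samples. Its values were 7.95, 8.29, 8.00, 8.25 and 8.10 in wild-type samples 1 to 5 and 7.54, 7.79, 7.51 and 7.48 in null samples 1 to 4. All null samples lay below all wild-type samples, with null sample 2 the nearest to them. The wild-type mean of 8.12 ± 0.15 (SD, n = 5) compared with a null mean of 7.58 ± 0.14 (SD, n = 4), a 1.45-fold fall (limma adjusted p = 0.0183). The call was lost without wild-type sample 4 (adjusted p = 0.0547), null sample 1 (0.0581) or null sample 3 (0.0565). Ptpn5 encodes STEP, a phosphatase best known from neurons, and its values were 5.22, 5.68, 5.14, 5.37 and 5.07 in wild type and 4.13, 4.58, 4.81 and 4.99 in null samples. These groups did not overlap either, and null sample 1 was the lowest, but the difference of -0.67 ± 0.17 (SE) missed the threshold (limma adjusted p = 0.0838). Without null sample 4 it passed (difference -0.79, limma adjusted p = 0.0492).

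Ptpn9 encodes MEG2, which carries a lipid-binding Sec14 domain and sits on secretory vesicles. Its values were 6.34, 6.51, 6.45, 6.30 and 6.39 in wild-type samples 1 to 5 and 6.01, 5.94, 5.96 and 6.02 in null samples 1 to 4. The null samples spanned a range of under 0.1 log2 units, all of it below the wild-type values. The wild-type mean of 6.40 ± 0.083 (SD, n = 5) compared with a null mean of 5.98 ± 0.038 (SD, n = 4), a 1.33-fold fall (limma adjusted p = 0.0081), and the gene passed without any 1 of the 9 arrays. Of the 10 genes nearest to Ptpn9 in gene order, 1 also passed, the sorting nexin gene Snx33. For Ptprj, Ptpn7, Ptpn13 and Ptprs, none of the 10 nearest genes did.

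A further group of phosphatases carries a FERM domain, which tethers proteins to the membrane skeleton, and some of its members also bind partners through PDZ domains. Of the 5 genes, Ptpn13 fell, Ptpn3 and Ptpn4 were lower without overlap but did not pass, and Ptpn21 and Ptpn14 overlapped between groups. Ptpn13 (PTP-BL) was 6.39, 6.67, 6.42, 6.52 and 6.44 in wild-type samples 1 to 5 and 5.50, 5.40, 5.66 and 6.22 in null samples 1 to 4. The first 3 null samples lay well below wild type and null sample 4 lay close to it. The wild-type mean of 6.49 ± 0.12 (SD, n = 5) compared with a null mean of 5.70 ± 0.37 (SD, n = 4), a 1.73-fold fall (limma adjusted p = 0.0238). The call held without null sample 2 (0.0469) or null sample 4 (difference -0.97, 0.0012) and was lost without any other 1 array, with adjusted p from 0.0506 without wild-type sample 1 to 0.0742 without null sample 1.

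Ptpn3 (PTPH1), which is known to act on the T cell receptor zeta chain, was 4.61, 5.37, 4.73, 5.02 and 4.75 in wild type and 4.16, 3.95, 4.36 and 4.47 in null samples. Null sample 2, the lowest, was under the array median. The difference was -0.66 ± 0.16 (SE) and missed the threshold (limma adjusted p = 0.0650). Ptpn4 (MEG1), the nearest relative of Ptpn3, was 6.43, 6.43, 6.65, 6.33 and 6.70 in wild type and 6.14, 6.23, 6.08 and 5.66 in null samples. Here null sample 4 was the lowest, unlike in Ptpn13, Ptpn3 and Ptpn5, where it was the highest of the null samples, and the difference of -0.48 ± 0.12 (SE) missed the threshold too (limma adjusted p = 0.0795). Ptpn21 had a difference of -0.32 and Ptpn14, under the array median, one of 0.20, both with overlapping groups. With the 10830 genes of lowest signal left out, so that 11350 were tested, Ptpn3, Ptpn4 and Ptpn5 passed as well, and the count of lower phosphatase genes was 8 in place of 5. In that fit 571 of all 11350 genes passed as lower, or 5.03%, beside 1.89% in the fit of all genes.

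**Figure D3:**
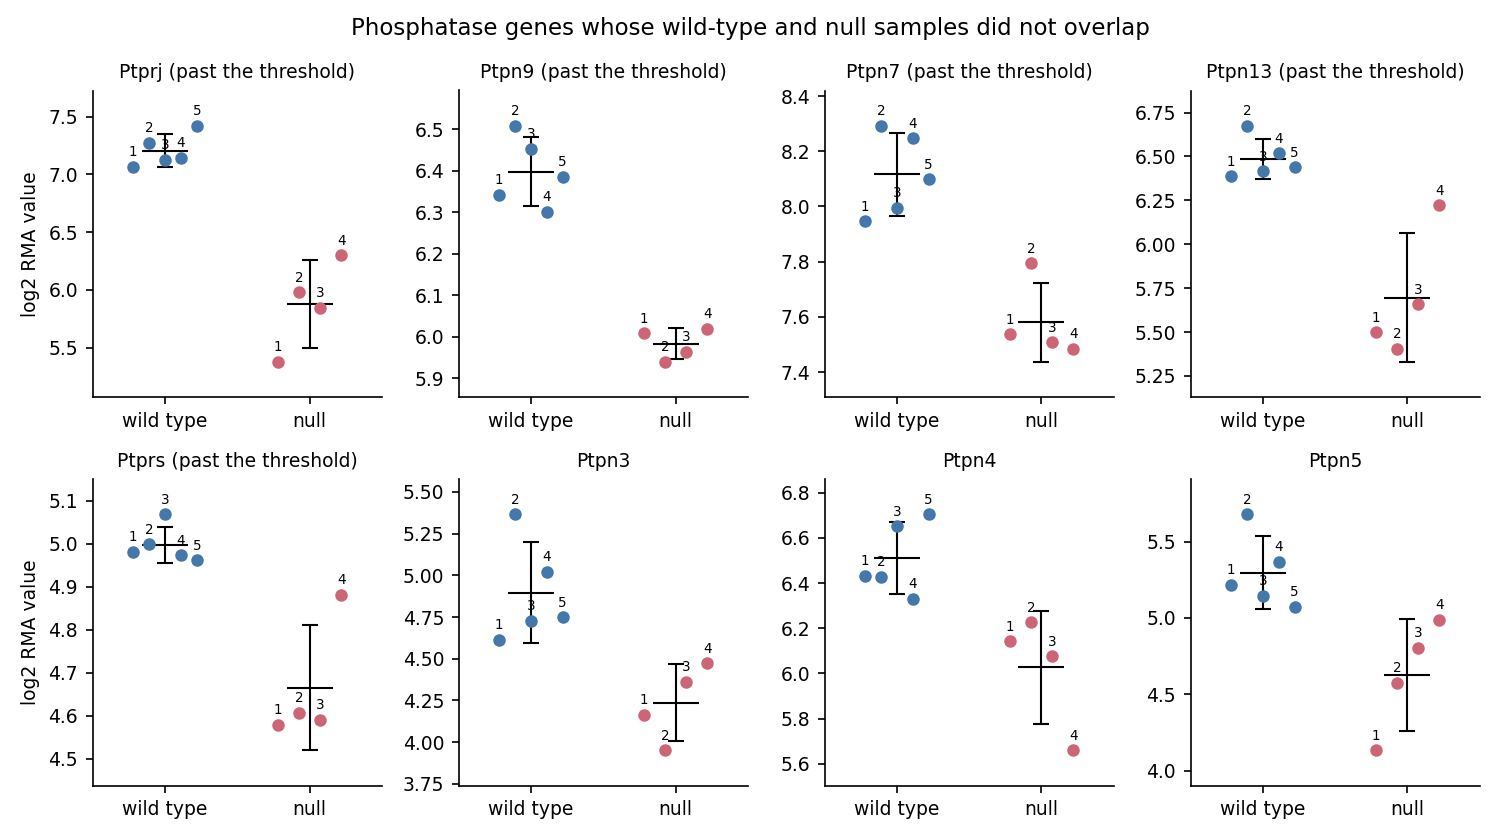
Log2 RMA values (vertical, a scale of its own in each panel that does not start at 0) of the 8 phosphatase genes whose groups did not overlap, with a point per sample numbered by replicate, the mean as a bar and the SD as whiskers (5 wild-type samples in blue, 4 null samples in red). In 6 of the 8 panels null sample 4 is the highest null value, and in Ptpn4 (5.66) and Ptpn7 (7.48) it is the lowest.

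In 4 of the 5 genes past the threshold, and 6 of the 8 without overlap, null sample 4 had the highest null value, and null sample 2 had it in the other 2. Relative to the wild-type mean, null sample 4 was lower by 0.91 for Ptprj, where the other null samples were lower by 1.23 to 1.83. For Ptpn13 it was lower by 0.27, beside 0.83 to 1.08 in the others. The B cell and myeloid marker lists were highest in this sample, and the T and Treg cell list was lowest in it (9.73). Over all genes its mean correlation was 0.9877 to the wild-type group and 0.9873 to its own. The part of any of these in the phosphatase values was not tested.

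**Figure D4:**
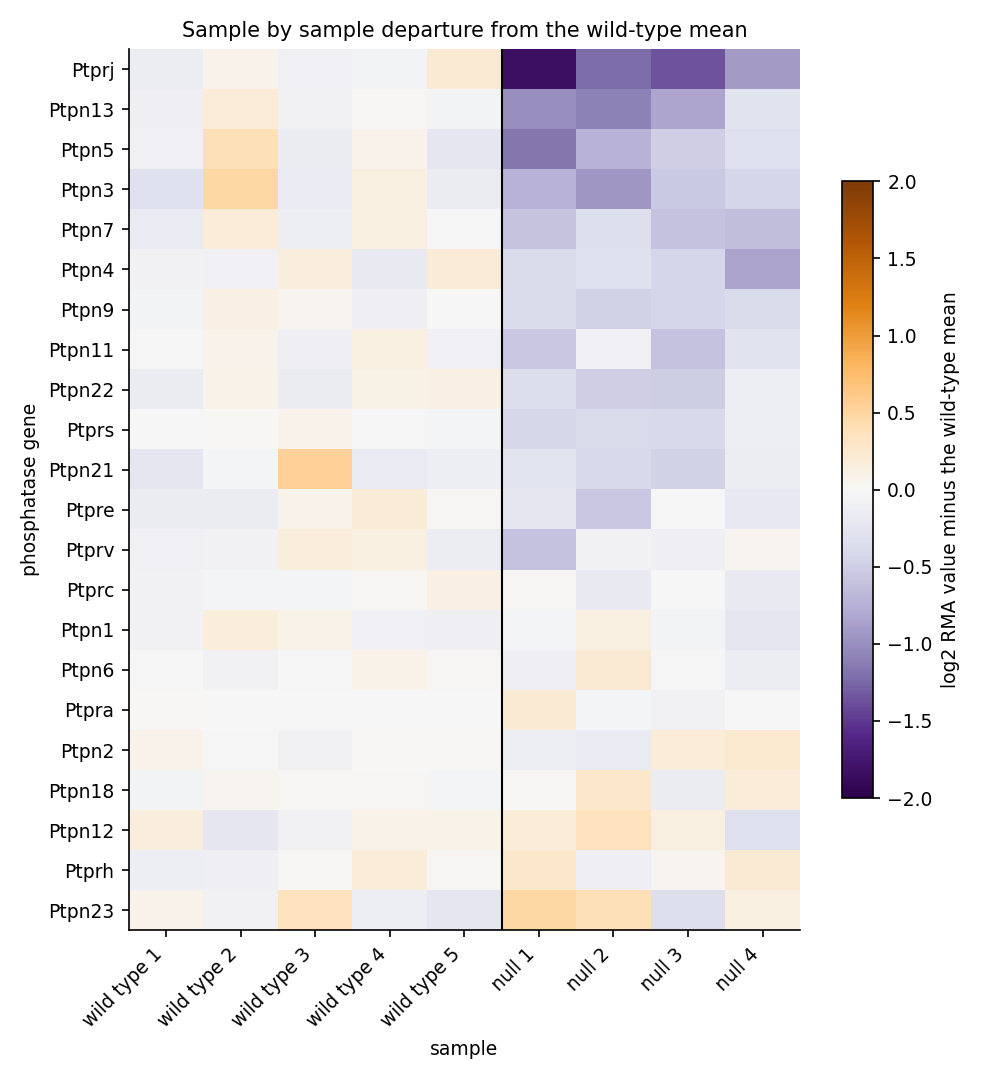
Log2 RMA value minus the wild-type mean of the gene (colour, purple for lower and orange for higher) for the 22 phosphatase genes with a mean at or above the array median (rows, ordered by the difference) in the 5 wild-type and 4 null samples (columns). The top rows are purple in all null samples, deepest for Ptprj in null sample 1, 1.83 below the wild-type mean, and pale in null sample 4 for Ptpn13, 0.27 below.

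The cytoplasmic phosphatases best known in T cell signalling did not pass. Ptpn22, which works with the kinase Csk to restrain T cell receptor signals, was 9.58, 9.82, 9.59, 9.84 and 9.85 in wild type and 9.39, 9.24, 9.23 and 9.62 in null samples. Null sample 4 reached into the wild-type range. The difference was -0.37 ± 0.10 (SE, limma adjusted p = 0.100), and without null sample 4 it was -0.45 and passed (0.0374). Ptpn18 and Ptpn12, of the same type rich in proline and serine near the tail, had differences of 0.083 (95% interval -0.11 to 0.27) and 0.091 (95% interval -0.20 to 0.38). Ptpn12 is known for acting on adaptors of cell adhesion, and its values were 7.59, 7.21, 7.37, 7.52 and 7.52 in wild type and 7.62, 7.80, 7.58 and 7.14 in null samples. The lowest and the highest null samples, 4 and 2, enclosed the wild-type range.

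Ptpn11 and Ptpn6 encode the phosphatases SHP-2 and SHP-1, which dock through SH2 domains on phosphorylated receptors. SHP-2 mostly promotes RAS signalling, and SHP-1 mostly restrains signals of lymphocyte receptors. Ptpn11 was 7.31, 7.40, 7.22, 7.45 and 7.24 in wild type and 6.78, 7.23, 6.73 and 7.04 in null samples. Null sample 2 lay within the wild-type range and the other null samples below it, and the difference of -0.38 ± 0.11 (SE) did not pass (limma adjusted p = 0.109). Without null sample 2 it was -0.47 and passed (0.0310). Ptpn6 was 8.88, 8.83, 8.88, 8.98 and 8.93 in wild type and 8.79, 9.12, 8.88 and 8.77 in null samples, with a difference of -0.011 (95% interval -0.19 to 0.17) whose sign turned after quantile normalisation (0.035).

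Ptpn1 and Ptpn2 encode PTP1B and TC-PTP, which dephosphorylate JAK kinases, and TC-PTP also STAT factors. Ptpn1 was 6.81, 7.04, 6.96, 6.79 and 6.78 in wild type and 6.84, 7.01, 6.83 and 6.64 in null samples. Its difference was -0.050 (95% interval -0.25 to 0.15). Ptpn2 was 7.15, 7.06, 7.02, 7.09 and 7.09 in wild type and 6.96, 6.92, 7.26 and 7.33 in null samples. Its difference was 0.036 (95% interval -0.17 to 0.24), with null samples on both sides of the wild-type range. Ptpn23, which takes part in sorting receptors at endosomes, had a difference of 0.17 (95% interval -0.20 to 0.54), and Ptpn20 a mean of 2.32, under the array median.

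Whether relatives changed unequally was tested on the log2 ratio of their values within each array, for the 16 combinations of genes of 1 structural type with means above the array median in both groups. Only the change of a ratio is read, since its level depends on the probe sets. The ratio of Ptpn6 to Ptpn11 lay between 1.44 and 1.69 in wild-type and between 1.72 and 2.15 in null samples, without overlap and 0.37 higher on average (exact two-sided permutation p = 0.0079, the smallest these groups allow, adjusted p = 0.0317 over the 16). The ratio of Ptpn18 to Ptpn22 was 0.45 higher in null samples, also without overlap (exact permutation p = 0.0079, adjusted 0.0317). Both changes lay mostly in the second gene, with differences of -0.38 for Ptpn11 and -0.37 for Ptpn22. Those of Ptpn6 (-0.011) and Ptpn18 (0.083) were small, and none of these genes passed the limma test. In the fibronectin type, the ratio of Ptprj to Ptprv was lower by 1.16 and that of Ptprh to Ptprj higher by 1.44, both with the same p-values. Ptprj itself fell by 1.33, while Ptprv (-0.18) and Ptprh (0.11) did not pass, so both ratios restate the fall of Ptprj. The adjusted p of the ratios of Ptpn6 to Ptpn11 and of Ptpn18 to Ptpn22 depends on these Ptprj ratios. All share the smallest p, and without the Ptprj ratios that adjusted p would be larger. Ptprh had a mean of 4.10, near the array median of 4.04. Its values in wild-type samples 1 (3.93) and 2 (3.95) and null sample 2 (3.95) were under that median. For the other 12 combinations the adjusted p was 0.218 or more. Among them were Ptpn3 to Ptpn4 (change -0.18, exact permutation p = 0.571) and Ptpn5 to Ptpn7 (-0.13, exact permutation p = 0.532), and a p of this size does not show that these relatives changed alike.

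Other genes of tyrosine phosphorylation were read from the same fit. A list of phosphatases and related genes outside the classical family had 19 measured genes, not all of them known to act on tyrosine. It included Acp1, the Ptp4a and Cdc25 enzymes and the Eya and Ubash3 genes. Of the 19, 0 passed, and the median difference was -0.032. At an unadjusted limma p under 0.05, 4 were lower and 0 higher, beside 9.8% and 5.06% of all genes. The smallest p were those of Ptp4a2, a membrane-anchored phosphatase (difference -0.35, limma adjusted p = 0.0623, groups without overlap), and Cdc25b, an activator of cyclin-dependent kinases (-0.45, 0.133). Ptp4a2 passed with dim genes left out (0.0406) and without null sample 2 (0.0242), and Cdc25b without wild-type sample 1 (0.0426). Of 25 cytoplasmic tyrosine kinases 1 rose and 0 fell (median -0.036), beside 0.428% and 1.89% of all genes. At an unadjusted limma p under 0.05, 4 kinases were lower and 1 higher, beside 9.8% and 5.06% of all genes. Without overlap 3 were lower and 1 higher, beside 4.4% and 1.76%. The gene that rose was Txk, a T cell kinase of the Tec family, at 7.87, 7.62, 7.96, 7.42 and 7.36 in wild type and 8.70, 8.18, 8.46 and 8.08 in null samples. Its groups did not overlap, and at a limma adjusted p of 0.0497 it was near the threshold: the call held without wild-type sample 3 (0.0491) or null sample 4 (0.0404) and was lost without any other 1 array, under median centring (0.0610) and with the probe set of lowest mean for each gene (0.0520).

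Of 30 adaptors and docking receptors of phosphatases, 1 rose and 1 fell (median 0.021), beside 0.428% and 1.89% of all genes. Without overlap 3 were lower and 4 higher, beside 4.4% and 1.76% of all genes. The largest difference of the list was that of Pdcd1, which encodes PD-1. It was lower by 1.05 without overlap but missed the threshold (limma adjusted p = 0.0748). Btla, an inhibitory receptor whose tail recruits SHP-1 and SHP-2, was 6.90, 6.57, 6.68, 6.53 and 6.70 in wild type and 7.28, 7.01, 7.22 and 7.24 in null samples. It rose by 0.51 log2 units without overlap (limma adjusted p = 0.0166), and the call was lost without null sample 1 (0.0554). Lax1, an adaptor that restrains lymphocyte receptor signals, was 7.79, 8.00, 7.93, 7.99 and 7.91 in wild type and 7.25, 7.60, 7.57 and 7.38 in null samples. It changed by -0.47 log2 units (limma adjusted p = 0.0190), and the call was lost without wild-type sample 2 or 4 (up to 0.0566). Another list held 13 genes of the interleukin-2 receptor, JAK kinases, STAT factors and their feedback inhibitors, of which 10 were measured. Jak1, which is also in the kinase list, was the only JAK kinase among the 10. Jak3 and Il2rg, the gamma chain of the receptor, were not among them. Of the 10, 1 fell and 0 rose (median -0.0070). Among all genes 1.89% fell and 0.428% rose. At an unadjusted limma p under 0.05, 3 of the 10 were lower and 0 higher, beside 9.8% and 5.06% of all genes. Without overlap 3 were lower and 0 higher, beside 4.4% and 1.76%. The gene that fell past the threshold was Il2rb, the beta chain of the receptor, with a difference of -0.33 (limma adjusted p = 0.0305). Its call held without null sample 2 (0.0129) and was lost without any other 1 array (up to 0.0839). No phosphatase protein or activity was measured.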

How the data were processed

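Gene expression was measured on whole-transcript Affymetrix arrays, 1 per sample, in 5 wild-type and 4 null samples. The authors deposited log2 values, and the submitters' processing notes name RMA and Affymetrix Expression Console 1.1. RMA subtracts background, equalises array distributions and joins the probes of a set, which compresses weak signal. Precision is limited by the number of arrays. The table held 41345 probe sets with values from 1.26 to 12.91, and no 2 columns were identical. In 16 of the 37 phosphatase genes at least 2 arrays shared an identical value.

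The platform annotation gave 1 gene symbol for 23521 probe sets, several for 1814 and none for 16010, and only the first were named. Where a gene had several, its brightest probe set by mean was used, which left 22180 genes. Groups were compared with limma 3.58.1 in R 4.3.3 (lmFit and eBayes, two-sided, Benjamini-Hochberg adjustment over all genes, threshold 0.05), with no filter on dim genes, and checked on simulated data. The simulation drew independent normal values with the same SD in both groups, so it does not cover the wider spread of the null samples. Ratios of related genes were compared by an exact permutation test over all 126 splits. Promoter windows came from RefSeq (GRCm38.p6). The genome build of the array is not given in the sources used.

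The members, gene lists and tests were chosen with earlier results of these data known. Values in every sample are given for members past the threshold or without overlap, and for members known in T cells. Of other lists each gene past the threshold is named, and where none passed the 2 with the smallest p, except in the marker lists of other cell types, which are given by counts. Pdcd1 is named as well, for the largest difference of its list. As alternatives, the fit was repeated with a replicate block, without dim genes, with other probe sets for a gene, and with other normalisations, eBayes settings, array weights, a heat shock covariate and leaving out arrays. Same-numbered wild-type and null samples had correlated deviations of -0.115 to 0.042, so the numbers were not taken as pairs. Plots were drawn with matplotlib 3.10.9.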

Additional observations from a re-analysis of the deposited data

Results flagged for a closer look

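In 12 of the 74 groups formed by 37 genes and 2 genotypes, the highest or lowest sample stood farther from the others than Dixon's 95% critical value, where chance flags about 1 group in 20 (0.05) on each such test. That rate holds for normal values without ties. In 16 of the 37 genes at least 2 arrays shared an identical value, so the count cannot be judged by that rate. Of the genes past the threshold this concerned Ptpn7 in null sample 2 (7.79, next value 7.54) and Ptprs in null sample 4 (4.88, next value 4.61), each the highest null value and the nearest to wild type. High values stood apart in Ptpn21 in wild-type sample 3 (5.20, next value 4.61), Ptpro in null sample 1 (2.70, next value 2.44), Ptprb in null sample 2 (2.94, next value 2.71), Ptpn20 in wild-type sample 3 (2.51, next value 2.31), Ptpru in null sample 3 (3.86, next value 3.67) and Ptprr in wild-type sample 3 (3.29, next value 3.15). Low values did so in Ptprm in null sample 2 (3.10, next value 3.40) and Ptprf in wild-type sample 1 (3.78, next value 3.94). In Ptpra in wild-type sample 1 (7.47, next value 7.46) and Ptprz1 in wild-type sample 1 (2.54, next value 2.48), as in Ptpro, the other samples of the group shared an identical value, so that the gap fills the whole range. Of these genes, Ptpro, Ptprb, Ptpn20, Ptpru, Ptprr, Ptprm, Ptprf and Ptprz1 had means under the array median.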

How the results depend on the processing

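With the replicate block 178 of all genes and 1 phosphatase gene (Ptprj, limma adjusted p = 0.0241) passed. Ptpn9 (0.0998), Ptpn7 (0.0590), Ptpn13 (0.0919), Ptprs (0.195), Btla (0.0600), Lax1 (0.0645), Il2rb (0.167) and Ikzf2 (0.168) lost their call in this fit. The block leaves fewer degrees of freedom, and the replicate numbers are not known to mark pairs. With dim genes left out 8 phosphatase genes and 705 of all 11350 genes passed, with phosphatases at a median difference of -0.28. Leaving out 1 array gave between 271 and 594 genes and between 2 and 7 phosphatase genes: 2 without wild-type sample 4 or null sample 1 or 3, 3 without wild-type sample 1, 2, 3 or 5, 5 without null sample 2 and 7 without null sample 4. The median difference then lay between -0.037 and 0.0077. Every other setting gave from 4 to 6 phosphatase genes, all lower, and Ptprs was the gene lost under the lowest probe set, median centring, quantile normalisation, the trended eBayes and the heat shock covariate. Ptpn11 was added by array weights and without null samples 2 and 4. Ptp4a2 also passed with the trended eBayes (0.0479), array weights (0.0380) and without null samples 2 and 4 (0.0496), where Ikzf2 did not (0.100). Differences close to 0 turned sign: after quantile normalisation those of Ptpn1 (0.012) and Ptpn6 (0.035), without null samples 2 and 4 that of Ptprc (0.0092), and on leaving out 1 array those of Ptpn1 (between -0.11 and 0.012), Ptpn2 (between -0.035 and 0.10) and Ptpn6 (between -0.087 and 0.030). The cause was not tested. The fold changes of genes near the array median are limited by signal over background.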

Other observations

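A probe set paired with both Taf7l2 and Ptprr, left out of the 37 genes because it names several, had means of 3.53 in wild type and 3.68 in null samples, under the array median.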
